A study of Homo sapiens with 4 samples.

Results

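Epithelial-mesenchymal transition (EMT) was described here by the mRNA of 10 genes, CDH1, CDH2, EPCAM, VIM, FN1, SNAI1, SNAI2, TWIST1, ZEB1 and ZEB2, in wild-type and paclitaxel-resistant anaplastic thyroid cancer (ATC) cells. The genes were taken for their textbook roles as epithelial markers, mesenchymal markers or regulators of EMT. The rule uses their names and no measured value, but they were chosen with earlier results of these data known. All 10 were found among the 26485 gene names of the expression tables, each on a single locus. Levels are FPKM, the fragments assigned to a gene scaled to its length and to the depth of the library, so that levels can be set roughly side by side. FPKM is not brought to an equal total in every library. For ZEB1 the level relative to other genes depended on the measure used, as given below.

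In EMT, epithelial cells lose the cell contacts built by E-cadherin and gain the filaments, matrix and motility of mesenchymal cells. Transcription factors of the SNAI, TWIST and ZEB families drive this switch, in large part by repressing E-cadherin, and the microRNAs of the miR-200 family act against the ZEB factors. ATC is the undifferentiated form of thyroid cancer, and a mesenchymal appearance is among its known features.

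The study compared the ATC lines SW1736 and 8505C, both established human lines, with the resistant lines SW1736-PTX and 8505C-PTX derived from them, to describe how expression differs once resistance is acquired. Each resistant line came from a single selection, in which paclitaxel, a taxane that stabilizes microtubules, was raised from 1 nM to 1.5 µM over 6 months. Resistant cells stayed in 1.5 µM paclitaxel while wt cells received none, so the presence of the drug and the acquired state cannot be told apart. One mRNA library was sequenced from each of SW1736 wt, SW1736-PTX, 8505C wt and 8505C-PTX, so no difference has a replicate check and no p-value is given.

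Depth, estimated from the coverage, ran from 43.5 to 57.9 M reads, with the higher depth of each line in its PTX library. ABCB1, the drug efflux pump, stood at 302.3 FPKM in SW1736-PTX and 497 FPKM in 8505C-PTX, against 0 and 0.363 FPKM in the wt libraries of these lines. Of the markers of thyroid follicular cells, TG, TSHR and SLC5A5 were at or below 0.00586 FPKM in every library, and the 8 markers together summed to between 36.6 and 77.2 FPKM. Of the 6 markers of blood and endothelial cells, 5 were below 0.5 FPKM in every library. The 6 together summed to between 0.652 and 4.80 FPKM, most of it from CD14. CDH5, the cadherin of endothelial cells, was not among the 6 and went the other way in the 8505C libraries. It was 55.9 FPKM in 8505C wt and 4.53 in 8505C-PTX, against 0 in SW1736 wt and 0.225 in SW1736-PTX.

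The library labelled SW1736-PTX stood nearer to the 8505C libraries than to the library of its own parental line. Across the 14692 genes that passed 0.5 FPKM somewhere, Pearson's r of log2(FPKM + 0.1) was 0.767 between SW1736-PTX and SW1736 wt, 0.873 between SW1736-PTX and 8505C wt, and 0.933 between SW1736-PTX and 8505C-PTX. It was 0.877 between 8505C-PTX and 8505C wt, so 8505C-PTX too stood nearer to the other resistant library than to its own parental line. Between the wt libraries it was 0.845. These are correlations across genes, which are not independent replicates. Of the thyroid transcription factors, PAX8, NKX2-1 and FOXE1 set SW1736-PTX with the 8505C libraries and HHEX did not. The HHEX level of SW1736-PTX, 11.7 FPKM, was close to the 12.4 FPKM of its parental line. For HHEX the library that stood apart was 8505C wt, at 5.92 FPKM, with 14.4 FPKM in 8505C-PTX. FOXE1 reached 26.6 FPKM in SW1736 wt and at most 0.511 FPKM elsewhere. PAX8 was 38.2 FPKM in SW1736 wt and between 0.123 and 0.206 FPKM in the other libraries, while NKX2-1 was 0 in SW1736 wt and between 30.5 and 39.0 FPKM elsewhere. Of 148 genes above 5 FPKM in 8505C wt and below 0.5 FPKM in SW1736 wt, 132 (89.2%) exceeded 1 FPKM in SW1736-PTX, TWIST1 and ZEB2 among them. Of 145 genes with the opposite pattern in the wt lines, 40 (27.6%) exceeded 1 FPKM in SW1736-PTX. Whether this library carries the right label was not tested, and each called difference of an EMT gene in SW1736-PTX is therefore also given against 8505C wt.

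Differences were taken as log2((a + 0.1)/(b + 0.1)) of the FPKM, a scale that understates the change of low genes. A gene was compared in a pair of libraries if it exceeded 0.5 FPKM in at least 1 of them, and was called higher or lower if the difference passed 1.5 in either direction. CDH1 and EPCAM stayed below this minimum everywhere, so 8 of the 10 genes were compared in each pair. In RNA from a whole culture, fewer expressing cells and less mRNA per cell cannot be told apart. In SW1736-PTX against SW1736 wt, TWIST1 and ZEB2 were higher and FN1 and SNAI2 were lower, that is 2 of 8 in each direction, where 15.7% of the 14202 genes compared were called higher and 10.2% lower. In 8505C-PTX against 8505C wt, FN1 and SNAI2 were higher and none of the 8 was lower, beside 15.0% higher and 5.89% lower among 13794 genes. The median difference of all genes compared was 0.01 in the first pair and 0.11 in the second, so the 8505C values carry a small common shift upward. The median difference of the 8 genes was -0.15 in SW1736 and 0.75 in 8505C.

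**Figure D1:**
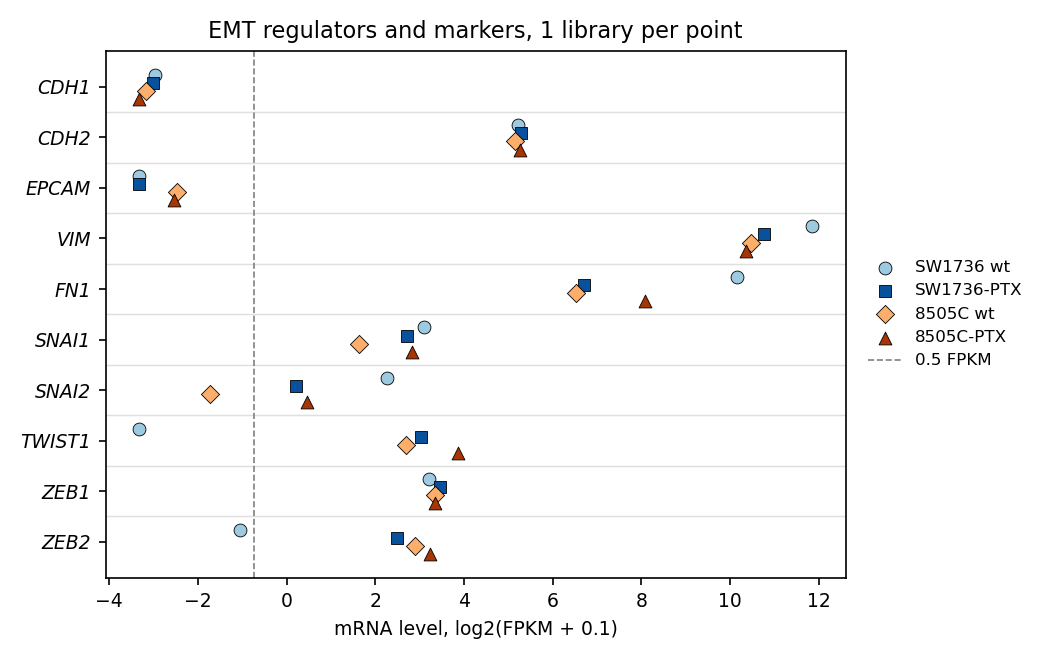
mRNA level of the 10 EMT genes in the 4 libraries, as log2(FPKM + 0.1), with 1 point per library and a dashed line at 0.5 FPKM. CDH1 and EPCAM lie left of the line in all libraries, VIM is the highest of the 10, and the SW1736 wt point stands apart from the other 3 for FN1, TWIST1 and ZEB2. For SNAI2, SW1736 wt is at the high end and 8505C wt at the low end.

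The epithelial markers were at or near 0 in both lines, resistant or not. CDH1, on chr16:68737292-68835541 of hg38 (plus strand, 16 exons), encodes E-cadherin, which joins epithelial cells at the adherens junction. Its level was 0.0277 FPKM in SW1736 wt against 0.0239 in SW1736-PTX, and 0.0108 in 8505C wt against 0 in 8505C-PTX, or about 7, 7, 2 and 0 reads. At this depth 3 reads on its transcript equal between 0.0108 and 0.0143 FPKM, so a change of CDH1 in 8505C was not detectable. EPCAM, on chr2:47369148-47387028 (plus strand, 9 exons), encodes the epithelial cell adhesion molecule and was listed at 0 in both SW1736 libraries, which allows up to 0.0396 FPKM in SW1736 wt and 0.0335 FPKM in SW1736-PTX. It was 0.0806 FPKM in 8505C wt and 0.0720 FPKM in 8505C-PTX, about 5 and 6 reads. These limits cover counting error only. In the tables a microRNA gene inside CDH1 on the same strand, MIR7641-2, had 1.13 FPKM in SW1736 wt and 0 elsewhere, and MIR559 inside EPCAM was at 0 in every library.

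N-cadherin was expressed at one level throughout. Its gene, CDH2, lies on chr18:27950963-28177446 (minus strand, 16 exons), and the protein is the cadherin that mesenchymal and neural cells carry in place of E-cadherin. CDH2 was 36.8 FPKM in SW1736 wt and 38.7 in its PTX library, then 35.6 in 8505C wt and 38.3 in its PTX library. The highest level was 1.09 times the lowest, and PTX differed from wt by 0.07 in SW1736 and 0.11 in 8505C on the log2 scale, at or near the median of all genes. The classical cadherins CDH1 to CDH4 together summed to 87.1 FPKM in SW1736 wt against 100.5 in SW1736-PTX, with 64.1 in 8505C wt and 53.1 in 8505C-PTX. CDH4, or R-cadherin, made up most of the rest, and the share of CDH2 in that sum was 42.3%, 38.5%, 55.6% and 72.2% in the same order.

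Vimentin was among the most abundant mRNAs of every library. VIM, on chr10:17228259-17237593 (plus strand, 10 exons), encodes the type III intermediate filament of mesenchymal cells. Its level was 3684 FPKM in SW1736 wt, where it was rank 2 of all genes, 1740 FPKM in SW1736-PTX (rank 31), 1417 FPKM in 8505C wt (rank 26) and 1321 FPKM in 8505C-PTX (rank 52). SW1736 wt was thus the high library and the other 3 lay close together. SW1736-PTX was 2.12-fold below SW1736 wt, a log2 difference of -1.08 that did not pass the limit of 1.5, and 0.30 above 8505C wt. In 8505C the difference was -0.10. VIM-AS1 on the opposite strand had 2.58, 1.29, 0.968 and 0.698 FPKM in the order SW1736 wt, SW1736-PTX, 8505C wt and 8505C-PTX, and whether strand was used in counting is not given in the sources used here.

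Fibronectin differed in opposite directions in the 2 lines. FN1, on chr2:215360440-215436070 (minus strand, 46 exons), encodes the matrix glycoprotein that mesenchymal cells deposit and bind through integrins. It was 1133 FPKM in SW1736 wt against 103 in SW1736-PTX, and 91.7 in 8505C wt against 270.4 in 8505C-PTX. SW1736 wt was the high library, and the lowest level belonged to 8505C wt. SW1736-PTX was 11.0-fold below SW1736 wt (log2 difference -3.45), while 8505C-PTX was 2.95-fold above 8505C wt (1.56). The second value lies just past the limit and became 1.45, within it, once the median of all genes was subtracted. Against 8505C wt, SW1736-PTX differed by 0.17. The ratio of VIM to FN1 was 3.25 in SW1736 wt and 16.8 in its PTX library, then 15.4 in 8505C wt and 4.88 in its PTX library.

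The SNAI factors are zinc finger repressors that bind E-boxes in the CDH1 promoter. SNAI1 (Snail), on chr20:49982976-49988883 (plus strand, 3 exons), was 8.44 FPKM in SW1736 wt against 6.50 in SW1736-PTX, with 2.98 in 8505C wt and 6.94 in 8505C-PTX. Only 8505C wt stood apart, at the low end. The log2 difference was -0.37 in SW1736 and 1.19 in 8505C, where PTX was 2.33-fold higher, and neither passed the limit.

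SNAI2 (Slug), on chr8:48917681-48921440 (minus strand, 3 exons), followed the opposite directions seen for FN1. Its level was 4.72 FPKM in SW1736 wt against 1.05 in SW1736-PTX, and 0.202 in 8505C wt against 1.27 in 8505C-PTX. Exact Poisson intervals (95%) from about 503, 133, 19 and 149 reads ran from 4.31 to 5.15, 0.882 to 1.25, 0.121 to 0.313 and 1.08 to 1.50 FPKM, for counting error only. The intervals of the resistant libraries overlapped each other and neither wt interval. SW1736-PTX was 4.49-fold below SW1736 wt (log2 difference -2.07), and 8505C-PTX was 6.30-fold above 8505C wt (2.18). SNAI2 was also the single gene of the 8 called between SW1736-PTX and 8505C wt, with a difference of 1.93. With a pseudocount of 1 in place of 0.1, the differences were -1.48 in SW1736 and 0.92 in 8505C, both within the limit.

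TWIST1 was listed at 0 in SW1736 wt and was expressed in the other 3 libraries. The gene, on chr7:19115468-19117672 (minus strand, 2 exons), encodes a basic helix-loop-helix factor of mesoderm and neural crest that acts in EMT. Beside the 0 of SW1736 wt, it stood at 8.06 FPKM in SW1736-PTX, 6.37 in 8505C wt and 14.4 in 8505C-PTX, or about 760, 452 and 1254 reads. A count of 3 reads in SW1736 wt would equal 0.0376 FPKM, and no fold is given against a library at 0. Against 8505C wt, SW1736-PTX differed by 0.33. In 8505C the PTX library was 2.25-fold higher than wt, a log2 difference of 1.16 that stayed within the limit. The 12 housekeeping genes examined had FPKM above 0.5 in every library, SW1736 wt included.

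The ZEB genes parted from each other in SW1736. Both encode large zinc finger and homeodomain repressors of CDH1. ZEB1, on chr10:31319172-31529814 (plus strand, 9 exons), was 9.16 FPKM in SW1736 wt and 10.9 in its PTX library, then 10.1 in 8505C wt and 10.1 in its PTX library. The libraries lay within 1.19-fold of each other, with log2 differences of 0.24 in SW1736 and 0.00 in 8505C. ZEB2, on chr2:144384375-144520391 (minus strand, 10 exons), was 0.386 FPKM in SW1736 wt against 5.54 in SW1736-PTX, with 7.30 in 8505C wt and 9.27 in 8505C-PTX. Again SW1736 wt was the odd library, here the low one. SW1736-PTX was 14.3-fold above SW1736 wt (log2 difference 3.54) and -0.39 from 8505C wt, whereas the 8505C difference was 0.34. ZEB2-AS1, on the other strand at the ZEB2 start, was 0 in 3 libraries and 0.130 FPKM in 8505C-PTX.

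The coverage column bears on how ZEB1 is read. For CDH1, EPCAM, VIM, SNAI1, SNAI2 and TWIST1, coverage divided by the ratio of coverage to FPKM of the library returned the FPKM. For CDH2 it fell slightly short, with 35.8 against 36.8 FPKM in SW1736 wt. For FN1 it returned 999, 94.7, 85.1 and 248 in the order SW1736 wt, SW1736-PTX, 8505C wt and 8505C-PTX, somewhat below the FPKM. For ZEB1 it returned 0.360 in SW1736 wt against 0.426 in SW1736-PTX, and 0.398 in 8505C wt against 0.398 in 8505C-PTX, far below the FPKM. For ZEB2 it returned 0.213, 3.22, 4.24 and 5.32 in the same order. The near-constant level of ZEB1 and the low ZEB2 of SW1736 wt were therefore found in both columns, but the level of ZEB1 relative to the other genes depended on the column, and the cause of the gap was not tested.

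The start regions of the ZEB genes and of FN1 are shown because ZEB1 held its level while ZEB2 and FN1 differed most among the genes with a start region in the RefSeq table used (build GRCh38.p14). Of the 10 genes, 5 had an entry there (CDH2, FN1, VIM, ZEB1 and ZEB2), with 12 windows in all, each from 250 bases before to 50 bases after a transcription start. CDH1, EPCAM, SNAI1, SNAI2 and TWIST1 are not shown. The windows below are given 5′ to 3′ on the strand of the gene. Capitals mark CACCTG or CAGGTG, the E-box letters that SNAI and ZEB proteins bind, which are each other's reverse complement and so cover both strands.
ZEB1, chr10:31318966-31319265, plus strand: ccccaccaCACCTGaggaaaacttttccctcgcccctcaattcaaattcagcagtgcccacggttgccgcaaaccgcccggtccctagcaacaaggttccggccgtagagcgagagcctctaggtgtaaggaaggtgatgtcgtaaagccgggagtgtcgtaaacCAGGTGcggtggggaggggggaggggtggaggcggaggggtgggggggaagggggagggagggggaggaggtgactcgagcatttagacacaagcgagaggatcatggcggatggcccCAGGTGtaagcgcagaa
ZEB2, chr2:144520070-144520369, minus strand: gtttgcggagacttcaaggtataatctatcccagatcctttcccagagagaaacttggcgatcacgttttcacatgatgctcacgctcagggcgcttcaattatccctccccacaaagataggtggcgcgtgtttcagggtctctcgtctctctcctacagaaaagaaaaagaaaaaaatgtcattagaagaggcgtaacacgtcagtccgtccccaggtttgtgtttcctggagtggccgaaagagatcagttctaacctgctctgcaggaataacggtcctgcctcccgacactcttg
FN1, chr2:215436019-215436318, minus strand: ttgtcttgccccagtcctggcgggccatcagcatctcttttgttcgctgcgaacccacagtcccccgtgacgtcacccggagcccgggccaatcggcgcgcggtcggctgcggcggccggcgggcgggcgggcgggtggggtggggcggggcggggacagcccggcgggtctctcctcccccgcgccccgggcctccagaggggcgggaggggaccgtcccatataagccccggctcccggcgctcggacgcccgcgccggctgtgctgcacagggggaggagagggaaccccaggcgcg
This ZEB1 window held 3 matches, starting 242 and 85 bases before and 33 bases after the start site. Another of the 7 ZEB1 windows, chr10:31318167-31318466, held 1 match 57 bases before its start, and the windows of ZEB2, FN1, VIM and CDH2 held none. Of all 35116 windows of this length, 20.6% had at least 1 match. GC made up 61.7% of the ZEB1 window, 49.0% of the ZEB2 window and 76.7% of the FN1 window, against a median of 58.7% over all windows. A match is only a run of letters, and no binding was measured.

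The microRNAs that target the ZEB mRNAs are shown next because their seeds match ZEB1 and ZEB2 far more often than the other genes. The 5 mature miR-200 family members from RefSeq fall into 2 seed groups, and capitals mark the seed, bases 2 to 8.
hsa-miR-141-3p: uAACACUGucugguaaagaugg
hsa-miR-200a-3p: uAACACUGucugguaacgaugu
hsa-miR-200b-3p: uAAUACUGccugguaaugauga
hsa-miR-200c-3p: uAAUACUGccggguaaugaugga
hsa-miR-429: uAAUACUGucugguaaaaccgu
The first pair shares AACACUG and the other 3 share AAUACUG, a difference of a single base. In the 3′ untranslated regions of GENCODE release 44, read on the mRNA strand only, the complement of AACACUG occurred 3 times and that of AAUACUG 6 times in the 2540 bases of ZEB1. In the 5370 bases of ZEB2 they occurred 4 and 5 times. FN1 had 2 matches, SNAI2 had 1, and CDH1, CDH2, EPCAM, VIM, SNAI1 and TWIST1 had none. Of 18780 such regions, 28.7% held at least 1 match and 8 held 9 or more. Among the 2047 regions within 1.2 times the length of that of ZEB1, 47.8% held a match and 1 held 9 or more, and among the 982 regions within 1.2 times that of ZEB2, 73.8% and 2 did. The matches nearest to the stop codon are given here with the matched letters in capitals.
ZEB1, chr10:31528030-31528053, plus strand, to AACACUG: gcaaaatcatcagaatCAGTGTTt
ZEB1, chr10:31527617-31527640, plus strand, to AAUACUG: cattgttttatcttatCAGTATTa
ZEB2, chr2:144389236-144389259, minus strand, to AACACUG: atgcaaaaattttgtaCAGTGTTa
ZEB2, chr2:144389052-144389075, minus strand, to AAUACUG: ccgcactaccatacatCAGTATTt
The libraries were made from mRNA and do not measure mature microRNAs. At the microRNA loci themselves, MIR200A, MIR200C and MIR141 were listed at 0 in all libraries. MIR200B had 0.554 FPKM and MIR429 0.131 FPKM in SW1736 wt, each under 3 reads, and 0 elsewhere.

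Summed over SNAI1, SNAI2, TWIST1, ZEB1 and ZEB2, the factor mRNA was 22.7 FPKM in SW1736 wt and 32.0 in its PTX library, then 27.0 in 8505C wt and 42.0 in its PTX library. Its makeup set SW1736 wt apart. SNAI1 and SNAI2 together made up 58.0% of it in SW1736 wt, 23.6% in SW1736-PTX, 11.8% in 8505C wt and 19.6% in 8505C-PTX. TWIST1 and ZEB2 together made up 1.70%, 42.5%, 50.7% and 56.3% in the same order. Of the 5 factors, 3 exceeded 1 FPKM in SW1736 wt, 4 in 8505C wt and all 5 in each resistant library. By scaled coverage, where ZEB1 stayed below 1 throughout, the counts were 2, 3 and 4 in the same order. Taken from the scaled coverage instead, SNAI1 and SNAI2 made up 95.8% in SW1736 wt, 39.2% in SW1736-PTX, 22.4% in 8505C wt and 29.0% in 8505C-PTX, so SW1736 wt stood apart in either column.

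**Figure D2:**
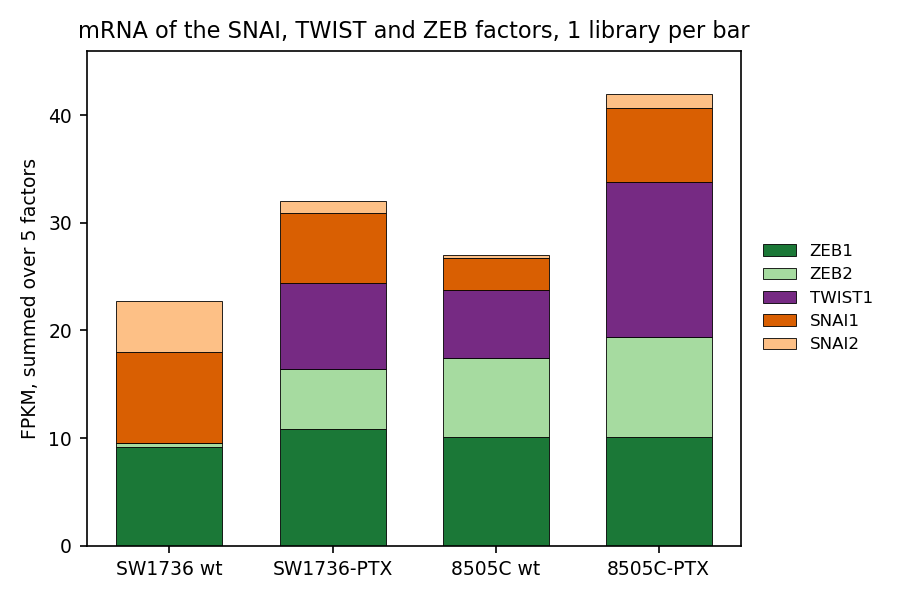
FPKM of the 5 SNAI, TWIST and ZEB factors stacked for each of the 4 libraries, 1 library per bar. SNAI1 and SNAI2 make up 58.0% of the SW1736 wt bar and TWIST1 is missing from it, while TWIST1 and ZEB2 make up between 42.5% and 56.3% of the other bars. The height of the ZEB1 segment depends on the column used, as given in the text.

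The wt lines themselves differed in the same genes. In 8505C wt against SW1736 wt, TWIST1 (log2 difference 6.02, which depends on the pseudocount) and ZEB2 (3.93) were higher and FN1 (-3.62) and SNAI2 (-3.99) were lower, 2 of 8 in each direction, where 7.73% of the 13457 genes compared were higher and 9.92% lower. FN1 was 12.3-fold lower, SNAI2 23.3-fold lower and ZEB2 18.9-fold higher in 8505C wt. SNAI1 (-1.47) and VIM (-1.38) came close to the limit, and CDH2 (-0.05) and ZEB1 (0.14) lay near 0. The median absolute difference of the 8 genes was 2.55, against 0.558 for all genes compared. This comparison and that of SW1736-PTX share the SW1736 wt library, so the likeness of their values is not an independent result.

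Between the resistant libraries, none of the 8 genes was called in 8505C-PTX against SW1736-PTX, where 3.70% of 13986 genes were higher and 4.09% lower. FN1 had the largest difference (1.39), followed by TWIST1 (0.83) and ZEB2 (0.73). The median absolute difference of the 8 genes, 0.328, was close to that of all genes compared, 0.325. In SW1736-PTX against 8505C wt, SNAI2 was higher and none was lower, 1 and 0 of 8, beside 15.1% and 5.23% of 13824 genes. There the median absolute difference of the 8 genes was 0.315 and that of all genes 0.658. Over all 10 genes, the root mean square of the log2 difference of SW1736-PTX was 2.65 from SW1736 wt, 0.780 from 8505C wt and 0.639 from 8505C-PTX. Which wt library SW1736-PTX was set against thus decided whether 4 of the 8 genes or 1 was called.

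**Figure D3:**
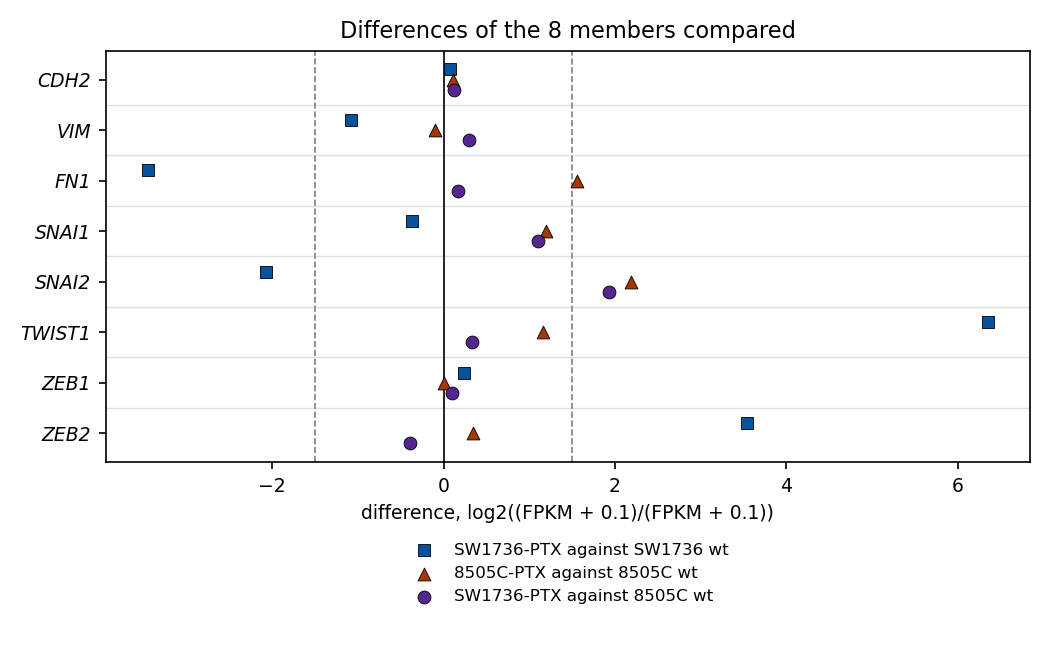
Log2 difference of the 8 EMT genes compared, for SW1736-PTX against SW1736 wt (squares), 8505C-PTX against 8505C wt (triangles) and SW1736-PTX against 8505C wt (circles), with dashed lines at the limit of 1.5 in either direction. FN1 and SNAI2 have squares on the left and triangles on the right, and all circles but that of SNAI2 lie between the dashed lines.

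Genes that work with these 10 were followed in 12 lists of 122 genes, of which 119 names were in the tables. In SW1736-PTX against SW1736 wt, 21 of the 84 genes compared were higher (25%) and 11 lower (13.1%), beside 15.7% and 10.2% of all genes compared, with a median difference of 0.18. In 8505C-PTX against 8505C wt, 20 of 83 were higher (24.1%) and 6 lower (7.23%), beside 15.0% and 5.89% of all genes compared, with a median of 0.24. When 8505C wt was the reference, SW1736-PTX had 18 of 80 higher (22.5%) and 7 lower (8.75%), beside 15.1% and 5.23%. These shares of all genes are the background for the counts of each list given next. The lists were chosen with earlier results of these data known, and nothing is read from their totals.

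Among the partners of the cadherins, JUP stood out in both lines. JUP, or plakoglobin, links cadherins to the cytoskeleton at adherens junctions and desmosomes, and its level was 9.56 FPKM in SW1736 wt against 223.9 in SW1736-PTX, with 27.8 in 8505C wt and 288.2 in 8505C-PTX. The log2 difference was 4.53 in SW1736, 3.37 in 8505C and 3.00 for SW1736-PTX against 8505C wt. The other 4 catenins and linkers compared, CTNNA1, CTNNB1, CTNND1 and VCL, were within the limit in both lines. Of the other cadherins, 8 were compared in SW1736, with 3 higher and 3 lower, and 6 in 8505C, with 3 higher and 1 lower. CDH6, CDH10 and CDH12, which are type II cadherins, were called higher in both with the pseudocount of 0.1. Against 8505C wt, SW1736-PTX differed by 2.34 for CDH6 but by -0.29 for CDH12, and CDH10 was listed at 0 in both wt libraries and stood at 1.87 FPKM in SW1736-PTX. CDH6 was 0.253, 1.88, 0.293 and 1.53 FPKM in the order SW1736 wt, SW1736-PTX, 8505C wt and 8505C-PTX. CDH5, CDH11 and CDH13 were named after their values were seen. CDH5 was the cadherin called lower in 8505C, with 55.9 FPKM in 8505C wt and 4.53 FPKM in 8505C-PTX (log2 difference -3.59). It was 0 in SW1736 wt and 0.225 FPKM in SW1736-PTX, which differed from 8505C wt by -7.43. CDH13 was 56.5 FPKM in SW1736 wt, 0.158 FPKM in SW1736-PTX and at most 0.0120 FPKM in the 8505C libraries, and CDH11 was 16.3, 0.105 and at most 0.0463 FPKM in the same order.

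Of the 6 relatives and partners of EPCAM, none was higher and 1 was lower in SW1736, and 1 was higher and 1 lower in 8505C. The higher gene was FHL2, which binds the inner fragment of EPCAM, with 35.0 FPKM in 8505C wt and 104.8 FPKM in 8505C-PTX (log2 difference 1.58). CLDN7, a claudin that associates with EPCAM, and ADAM17, a protease that cleaves it, were within the limit in both lines. Of the 12 transcription and splicing factors of epithelial cells, 8 were at or below 0.288 FPKM in every library, and 3 of these, ESRP1, GRHL3 and OVOL1, were listed at 0 in all. Of the 4 compared in SW1736, 2 were higher and 1 was lower, and none of 3 was called in 8505C. KLF4 was 2.36 FPKM in SW1736 wt and 13.4 in its PTX library (log2 difference 2.46, and 1.78 against 8505C wt), and KLF5 was 6.79 and 25.1 FPKM (1.87, but -0.49 against 8505C wt). ESRP2, a splicing factor of epithelial cells, was 1.23 FPKM in SW1736 wt and 0.122 FPKM in SW1736-PTX. These 3 genes are named after their values were seen.

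Other transcription factors of EMT were higher in 6 of 8 genes compared in SW1736 and in 3 of 8 in 8505C, and none was lower in either. SNAI3, the remaining SNAI gene, and TCF4, an E protein that partners TWIST1, were higher in both. TCF4 was 2.24 FPKM in SW1736 wt and 8.51 in its PTX library, then 1.98 in 8505C wt and 11.3 in its PTX library, so its wt libraries were alike and its PTX libraries were alike. Its difference was 1.88 in SW1736, 2.45 in 8505C and 2.05 for SW1736-PTX against 8505C wt. SNAI3 was low, at most 1.19 FPKM, and its SW1736 difference of 1.50 was just past the limit. FOXC2, named after its values were seen, was listed at 0 in SW1736 wt and lay between 23.2 and 25.7 FPKM in the other 3 libraries, so that SW1736 wt stood apart as it did for TWIST1.

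The proteins that SNAI and ZEB factors recruit, such as CTBP1, KDM1A and HDAC1, were expressed throughout. None of the 11 corepressor genes compared was called in SW1736, and 1 was called in 8505C, where EZH2, the histone methyltransferase of the Polycomb complex, was 18.7 FPKM in wt and 6.42 FPKM in PTX (-1.53). Of the genes that set the stability of the SNAI1 protein, 9 were compared in SW1736, with 1 higher and 1 lower, and 10 in 8505C, with none called. FBXL5, a ubiquitin ligase component, was the higher one (1.77) and FBXO45 the lower one (-1.64). With 8505C wt as the reference, SW1736-PTX differed by 1.03 for FBXL5 and -1.23 for FBXO45, both within the limit.

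Among other mesenchymal genes, 2 of 12 were higher and 4 lower in SW1736, and 4 of 12 were higher and 3 lower in 8505C. PDGFRB, the receptor for platelet-derived growth factor on fibroblasts and pericytes, was 0.402 FPKM in SW1736 wt against 6.08 in SW1736-PTX, with 0.0922 in 8505C wt and 6.49 in 8505C-PTX. S100A4, a calcium-binding protein used as a fibroblast marker, was 0.482, 21.9, 2.77 and 8.06 FPKM in the same order. Both were higher in the PTX library of either line, whereas TAGLN was lower in either line. The 8505C difference of S100A4 (1.51) was just past the limit and fell within it with TPM (1.49), with centring on the median (1.40) and with a pseudocount of 1 (1.27). TAGLN, an actin-binding protein of smooth muscle, was 58.2 FPKM in SW1736 wt against 2.89 in SW1736-PTX, and 21.0 in 8505C wt against 4.18 in 8505C-PTX. For all 3 of these genes the difference of SW1736-PTX from 8505C wt passed the limit in the same direction (5.01, 2.94 and -2.82).

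Of the receptors for fibronectin, 1 of 6 was higher in each line and none was lower. The higher gene was ITGA4 in SW1736 (3.64) and ITGB3 in 8505C (2.93). ITGA5, ITGAV, ITGB1 and SDC4 were within the limit in both. ITGA4 was listed at 0 in SW1736 wt, so its difference there depends on the pseudocount. It stood at 1.15 FPKM in SW1736-PTX and 2.16 FPKM in 8505C wt, a difference of -0.86. Among type III filament genes and the linkers of vimentin, 2 of 5 compared were higher in SW1736 and 5 of 7 in 8505C, and none was lower in either. The 2 genes compared in 8505C alone were DES and GFAP, which were called there at 0.652 and 0.559 FPKM in PTX but stayed just under the minimum in SW1736-PTX, at 0.445 and 0.476 FPKM. The difference between the lines in these counts was not tested, and DES and GFAP are named after their values were seen. NES, or nestin, a filament protein that assembles with vimentin, was 3.14 FPKM in SW1736 wt and 20.9 in its PTX library, then 0.355 in 8505C wt and 3.30 in its PTX library. PRPH, the peripheral neuron filament, was higher in both lines but reached only 0.753 FPKM.

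Transforming growth factor beta is a well-known inducer of EMT, and 3 of its 9 pathway genes were higher in SW1736 and 2 of 9 in 8505C, with none lower. The ligand TGFB2 was 7.39 FPKM in SW1736 wt against 34.4 in SW1736-PTX, with 1.78 in 8505C wt and 20.3 in 8505C-PTX. The inhibitory SMAD7, itself a target of the pathway, was 2.80, 9.41, 1.90 and 16.3 FPKM. Log2 differences were 2.20 and 3.44 for TGFB2 and 1.71 and 3.04 for SMAD7, in SW1736 and 8505C respectively. Against 8505C wt, SW1736-PTX differed by 4.20 for TGFB2 and 2.25 for SMAD7.

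**Figure D4:**
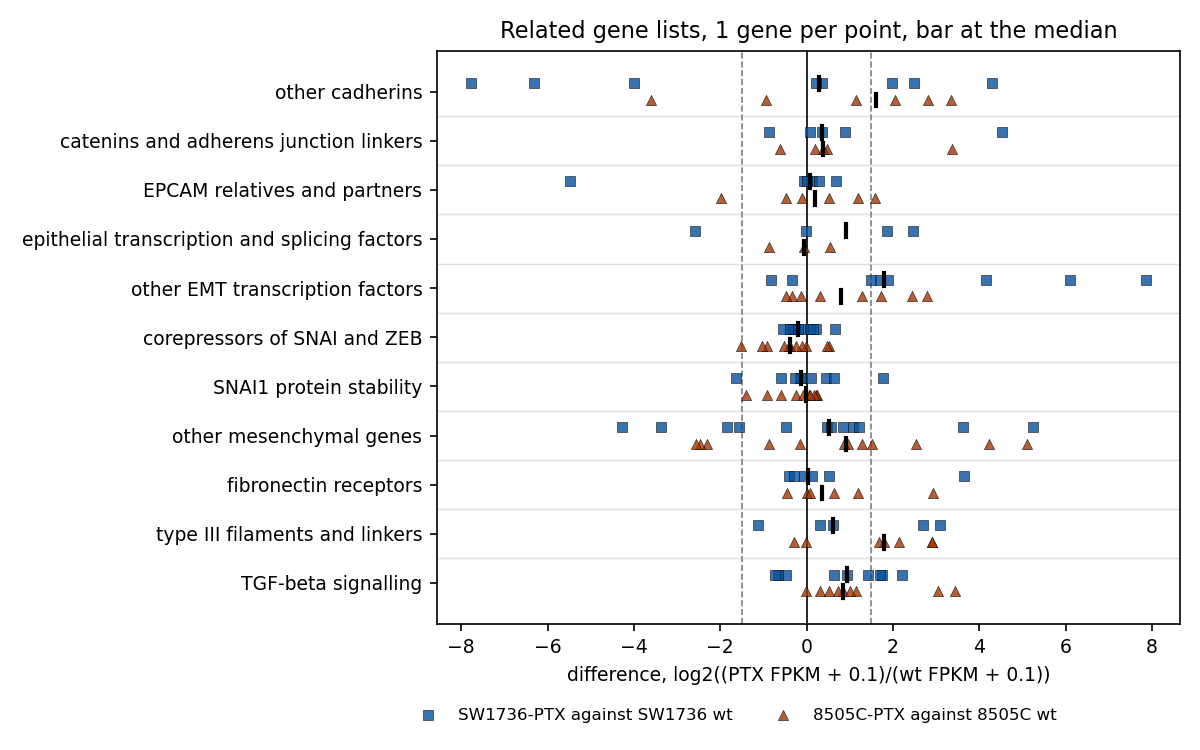
Log2 difference of PTX from wt for each gene compared in 11 of the 12 related lists, with squares for SW1736, triangles for 8505C, a black bar at each list's median and dashed lines at 1.5 in either direction. The corepressor genes crowd around 0 in both lines, and the other EMT transcription factors have a median of 1.79 in SW1736 and 0.80 in 8505C.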

How the data were processed

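One mRNA library each of SW1736 wt, SW1736-PTX, 8505C wt and 8505C-PTX was sequenced with single-end reads of 75 bases. Per the study's methods, the authors used bcl2fastq 2.20, Cutadapt and ERNE to prepare the reads, STAR to align them to hg38, and StringTie for quantitation. The annotation and the versions of STAR, ERNE and StringTie are not given in the sources used here. The coverage deposited by the authors is the mean number of reads over each base of a gene, with no correction for depth. The deposited FPKM was scaled by StringTie to gene length and library depth. The deposited TPM was further scaled to an equal total in every library. No read counts were used, so no count model was run.

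FPKM were summed per gene name before log2 differences were taken. The limits of 0.5 FPKM and 1.5 log2 are those of the study's methods, whereas the pseudocount of 0.1, and asking for 0.5 FPKM in only 1 library of a pair, were chosen here. Depth came from the ratio of coverage to FPKM and the read length. Approximate reads came from FPKM, transcript length (GENCODE release 44) and this depth, and not from the coverage of the gene. Alternatives changed the pseudocount, the FPKM minimum, the unit, the centring, the handling of repeated names and the limit. The calling step was tested on simulated data with counting error only. That test does not cover genes near the FPKM minimum or spread between cultures. Tools were Python 3.11.15 with NumPy 2.4.6, pandas 2.3.3 and, for figures, matplotlib 3.10.9.

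The 10 genes and the related lists were chosen with earlier results of these data known. By rule, the text names all 10 genes, list genes called in the same direction in both lines (at most 4 per list and direction), overlapping or defining marker genes, and the 2 genes most like each varying gene. Any other list gene named was chosen after its values were seen. Some list genes are not reported here.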

Additional observations from a re-analysis of the deposited data

Results flagged for a closer look

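Genes called in opposite directions in the lines drew attention. FN1 differed by -3.45 on the log2 scale in SW1736-PTX against SW1736 wt and by 1.56 in 8505C-PTX against 8505C wt. SNAI2 differed by -2.07 and 2.18 in the same comparisons. In the related lists, POSTN, which encodes the matrix protein periostin, differed by -3.37 and 4.22. Its level was 2.17 FPKM in SW1736 wt and 0.119 in its PTX library, and 1.79 in 8505C wt and 35.1 in its PTX library. Each line has 1 library per condition, so the difference between the lines was not tested. Of 13304 genes compared in both lines, 144 (1.08%) were called in opposite directions, 87 of them (0.654% of all compared) lower in SW1736-PTX and higher in 8505C-PTX, as FN1, SNAI2 and POSTN were. Against 8505C wt, SW1736-PTX differed by 0.17 for FN1, 1.93 for SNAI2 and -3.10 for POSTN, so of these only POSTN kept its lower call with that reference.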

How the results depend on the processing

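No paired analysis was possible because, within a line, each group has 1 library. A fit with the line as a block would treat the 2 lines as replicates and leave 1 residual degree of freedom, and it was not run. Of the 9 alternatives, asking for 0.5 FPKM in both libraries lowered the EMT genes called from 4 to 2 in SW1736-PTX against SW1736 wt, from 2 to 1 in 8505C-PTX against 8505C wt, from 4 to 1 in 8505C wt against SW1736 wt and from 1 to 0 in SW1736-PTX against 8505C wt, since TWIST1, ZEB2 or SNAI2 then left the comparison. A pseudocount of 1 gave 1 in 8505C and 0 in SW1736-PTX against 8505C wt. Centring on the median gave 1 in 8505C, where FN1 became 1.45. A log2 limit of 1 gave 4 in 8505C, 1 in 8505C-PTX against SW1736-PTX and 2 in SW1736-PTX against 8505C wt, and a limit of 2 gave 1 in 8505C and 0 in SW1736-PTX against 8505C wt. No EMT gene changed direction with a call. Alternatives for the related lists were chosen after seeing the data. Their calls numbered 32 in SW1736, against 21 with a pseudocount of 1, 15 with the minimum in both libraries and 21 with a limit of 2, and 26 in 8505C, against 16 with a pseudocount of 1 and 17 with the minimum in both libraries. Depth limits CDH1 and EPCAM, with at most about 7 reads in any library.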

Other observations

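For the genes whose level spanned over 1.5 on the log2 scale, the most similar patterns were sought among 14691 other genes above 0.5 FPKM in at least 1 library, by the root mean square difference of centred log2(FPKM + 0.1) over the 4 libraries. Nearest to TWIST1 was KCTD15, a regulator of neural crest formation, with a root mean square difference of 0.0969. KCTD15 was listed at 0 in SW1736 wt and had 8.60 FPKM in the PTX library of that line, 7.66 in 8505C wt and 15.0 in 8505C-PTX. SVEP1, an extracellular matrix protein, came next (0.129). Nearest to SNAI2 were SH3PXD2A, a scaffold protein of invadopodia (0.124), and RUNX2, the osteoblast transcription factor (0.125), which was 6.12 FPKM in SW1736 wt and 1.70 in its PTX library, then 0.390 in 8505C wt and 1.95 in 8505C-PTX. Nearest to FN1 were the repressor HIC1 (0.143), with 7.11 FPKM in SW1736 wt and between 0.631 and 1.93 FPKM elsewhere, and HSF4 (0.171). Nearest to ZEB2 were MIR196A1 and MAP9 (0.120 each), both listed at 0 in SW1736 wt and at most 1.58 FPKM elsewhere. With 4 libraries, many genes share such a pattern, and nothing is read from it about shared function.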
